A study of Mus musculus with 2 samples.

Results

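The genes described here are 34 S phase and DNA replication genes, taken as a fixed list from 32285 gene identifiers in the deposited tables: origin licensing and S phase entry factors, the 6 subunits of the MCM helicase and its partners, polymerase alpha and primase, the PCNA clamp and its loader, lagging strand enzymes, the enzymes that make DNA precursors, and factors that act on chromatin, DNA methylation and histone mRNA. All 34 are protein coding, each was found in both libraries, and their UMIs (unique molecular identifiers, 1 per captured transcript) over the kept cells summed to between 562 for the rarest and 21319 for the most abundant. They were followed in living mononuclear cells of the mouse plantaris, a calf muscle. In 5 male C57BL/6 mice of 12 weeks, one leg underwent tenotomy and the opposite leg sham surgery. Muscles taken 4 days later were pooled by side and digested with collagenase, Calcein AM positive and propidium iodide negative cells were sorted, and each pool gave a single 10x Chromium 3′ v3.1 library. The sources used here do not name the tendon that was cut. The 2 groups thus share their animals, with no other allele or agent named.

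With 1 library per group, treatment and library cannot be told apart, no test across animals was possible, and bracketed ranges are 95% confidence limits that cover counting error only. The tables held 47781353 UMIs in 8463 sham barcodes and 94556283 UMIs in 11950 tenotomy barcodes, and 7533 sham and 10928 tenotomy cells passed the filters (median depth 4841 and 5859.5 UMIs). The libraries shared 33 barcodes, 0.390% of the sham and 0.276% of the tenotomy barcodes. Cells were placed in classes by fixed marker genes, none of which is a replication or mitotic gene, and the ending "-like" marks every class as a rebuilt one. Blood endothelial-like cells numbered 3289 in sham and 1496 in tenotomy, mesenchymal progenitor-like cells 2095 and 1851, myogenic-like cells (muscle stem cells or myoblasts) 447 and 389, and monocyte/macrophage-like cells 367 and 4600. In libraries where a class had at least 50 cells, no marker of another class was among its 10 leading genes, but basophil proteases (Mcpt8, Prss34) stood among those of the granulocyte precursor-like cells and killer cell receptors (Klrd1, Klrk1) among those of the dendritic cell-like cells. Levels are given as CPM, the UMIs of a gene per 1000000 UMIs of its class and library. Each transcript is counted at its 3′ end, so levels were not divided by gene length.

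Replication starts where MCM helicases, loaded in G1 by Cdc6 and Cdt1, are activated by Cdc45 and the GINS complex. Polymerase alpha with primase then lays primers, replication factor C loads the PCNA clamp, and Fen1 and Lig1 finish the lagging strand while ribonucleotide reductase and thymidylate synthase supply precursors. Transcription of many of these genes is raised by E2F factors when a cell leaves G1. Resting adult muscle holds mostly non-dividing stem, mesenchymal and endothelial cells, which can enter the cycle after injury or loading.

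In tenotomy the genes stood highest over sham in myogenic-like cells, then in mesenchymal progenitor-like and pericyte or smooth muscle-like cells, less in blood endothelial-like cells, and close to sham in monocyte/macrophage-like and tenocyte-like cells. Their summed level was 438 CPM in sham and 2289 CPM in tenotomy in myogenic-like cells, a fold of 5.23 (4.94 to 5.54). It was 388 and 1063 CPM in mesenchymal progenitor-like cells, a fold of 2.74 (2.67 to 2.81). Pericyte or smooth muscle-like cells had 553 and 1059 CPM, a fold of 1.91 (1.68 to 2.18), and blood endothelial-like cells 781 and 1168 CPM, a fold of 1.495 (1.45 to 1.54). Monocyte/macrophage-like cells had 676 and 807 CPM, a fold of 1.19 (1.14 to 1.25) that was 1.003 as a mean of per-cell levels, and tenocyte-like cells 468 and 484 CPM, a fold of 1.03 (0.939 to 1.14). Summing UMIs gives deep cells more weight, and the cells of the first 2 classes were deeper in tenotomy: the median was 6013 UMIs in sham and 14902 in tenotomy in myogenic-like cells, and 8216 and 14059 in mesenchymal progenitor-like cells. As means of per-cell levels the folds were 4.24 and 1.98, and with each cell thinned to 2000 UMIs they were 4.38 and 1.99.

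The single genes differed widely within each class. In myogenic-like cells 32 of 34 genes were at least 2-fold higher in tenotomy and none at least 2-fold lower, where 34.8% of all 10725 measured genes (at least 25 UMIs) were at least 2-fold higher and 11.6% lower. In mesenchymal progenitor-like cells these were 28 of 34 and none, against 14.9% and 19.5% of all genes, and in blood endothelial-like cells 22 of 34 and none, against 8.92% and 8.23%. In monocyte/macrophage-like cells 11 of 34 were at least 2-fold higher, against 7.84%, and 1, Cdc6, at least 2-fold lower, against 13.7%. Their median log2 fold was 3.16 in myogenic-like, 1.93 in mesenchymal progenitor-like, 1.31 in blood endothelial-like and 0.54 in monocyte/macrophage-like cells, and that of all measured genes 0.50, -0.07, -0.02 and -0.04. Divided by the median fold of all genes, 31 genes were at least 2-fold higher in myogenic-like cells. With each cell thinned to 2000 UMIs, which leaves fewer genes measured, the counts were 19 in myogenic-like and 14 in blood endothelial-like cells. The share of all genes past 2-fold was not taken after this division or in thinned cells. Those counts thus have no background beside them, and the drop after thinning is not read as a result.

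**Figure D1:**
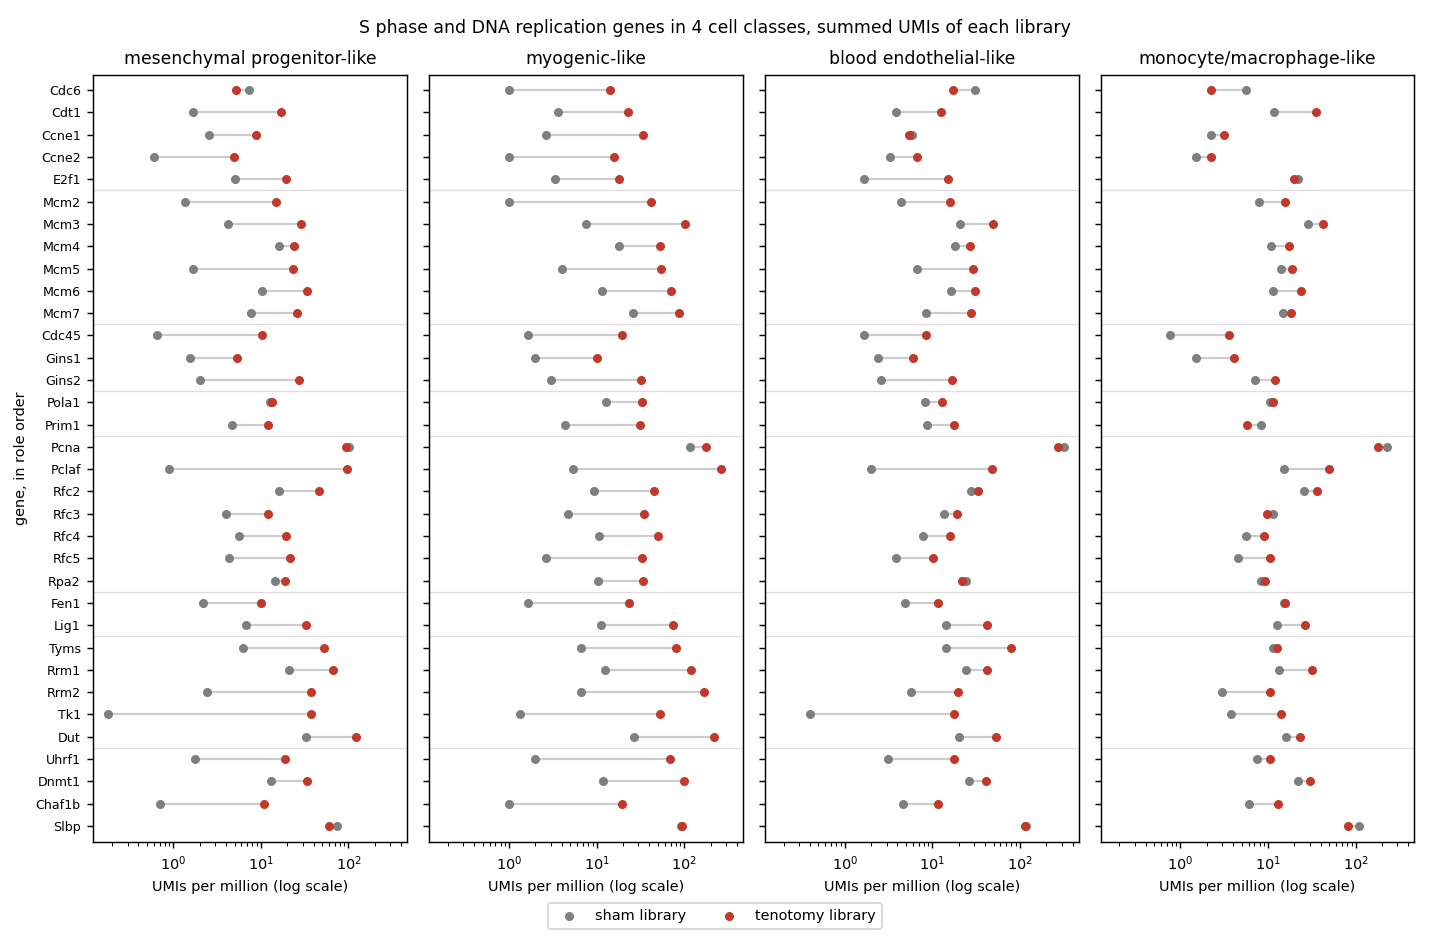
Level of each of the 34 genes (CPM, log scale) in the sham (grey) and tenotomy (red) library in 4 cell classes, ordered by role, with grey lines between roles; each point is 1 library. Pclaf and Tk1 show the widest gaps in mesenchymal progenitor-like cells, while Pcna and Slbp lie high in both libraries in all 4 classes.

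Among the origin licensing and entry genes, Cdc6 was lower and its partner Cdt1 higher in tenotomy in mesenchymal progenitor-like and blood endothelial-like cells, while both were higher in myogenic-like cells. Cdc6, which loads the helicase onto origins, was at 7.25 CPM in sham and 5.24 in tenotomy in mesenchymal progenitor-like cells, a fold of 0.722 (0.567 to 0.921). In blood endothelial-like cells it was at 30.7 and 17.1 CPM, a fold of 0.559 (0.446 to 0.695). Its myogenic-like level was 0.998 CPM in sham, from 3 UMIs, and 14.0 CPM in tenotomy, a ratio of 14.1 (4.67 to 69.4), which was 1.92 with each cell thinned to 2000 UMIs. In monocyte/macrophage-like cells it was at 5.65 and 2.26 CPM, a fold of 0.400 (0.226 to 0.753), which thinning turned to 1.08. Cdt1, the other loading factor, was 10.3-fold (7.02 to 15.6) higher in mesenchymal progenitor-like cells, from 1.66 to 17.1 CPM, 6.26-fold (3.40 to 12.8) in myogenic-like cells, 3.24-fold (2.23 to 4.73) in blood endothelial-like cells, and 2.99-fold (2.09 to 4.42) higher in monocyte/macrophage-like cells, from 11.7 to 34.9 CPM. Cyclin E pairs with Cdk2 at S phase entry: Ccne1 was at 2.66 and 33.4 CPM in myogenic-like cells, 12.6-fold (6.26 to 29.4) higher, and at 5.87 and 5.39 CPM in blood endothelial-like cells. E2f1, an activator of the programme, was 9.02-fold (5.57 to 15.3) higher in blood endothelial-like cells, from 1.66 to 15.02 CPM, and at 21.9 and 20.03 CPM in monocyte/macrophage-like cells. Tenocyte-like cells, with 21 genes measured, had 1 at least 2-fold higher, Cdt1 (9.11 and 30.5 CPM, 3.35-fold, 2.03 to 5.54). They had 1 at least 2-fold lower, Cdc6 (8.84 and 3.39 CPM, from 32 and 4 UMIs). Its fold of 0.384 had an interval that spanned 1 (0.0986 to 1.08). Of all genes 4.94% were higher and 11.0% lower by that fold, so neither count stands above the background.

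The MCM2-7 ring unwinds DNA ahead of the fork, and its 6 subunits were at least 2-fold higher in 6 of 6 cases in myogenic-like, 5 of 6 in mesenchymal progenitor-like, 4 of 6 in blood endothelial-like and 1 of 6 in monocyte/macrophage-like cells. Though the subunits form 1 complex, their folds were unequal. In mesenchymal progenitor-like cells Mcm5 had the highest, 13.9 (9.52 to 21.0), from 1.66 to 23.1 CPM. Mcm4 had the lowest there, 1.46 (1.27 to 1.68), and already stood at 16.2 CPM in sham, against 23.6 in tenotomy. Sham levels of the 6 spanned 1.37 to 16.2 CPM in that class and tenotomy levels 14.9 to 33.98 CPM. In myogenic-like cells Mcm2 went from 0.998 CPM, on 3 UMIs, to 41.7 CPM, a ratio of 41.8 (14.1 to 204), and Mcm4 from 18.0 to 53.1 CPM, a fold of 2.95 (2.21 to 4.01). Blood endothelial-like cells had Mcm5 at 6.66 and 29.2 CPM, a fold of 4.39 (3.37 to 5.76), and monocyte/macrophage-like cells Mcm6 at 11.3 and 23.6 CPM, a fold of 2.09 (1.45 to 3.11).

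The start regions of 3 helicase genes and of Cdc6, whose fold lay below 1 in mesenchymal progenitor-like and blood endothelial-like cells where theirs lay above it, were set side by side. RefSeq start regions of build GRCm38.p6 matched 29 of the 34 genes (the entries for Ccne2, Mcm4, Gins1, Gins2 and Rfc2 were not found), and the 250 bases before the RefSeq start were searched on both strands, in either reading direction, for the E2F-type words TTTCCCGC, TTTGGCGC, TTTCGCGC and TTTGCCGC. A word stood in 6 of the 29, 20.7%: Cdc6, Mcm5, Mcm6, Mcm7, Pola1 and Rfc3. All 27025 start regions of the same length held one in 1.91%, 44 start regions of other replication genes in 15.9% and 32 of mitotic genes in 3.12%. The words TTTGAA and TTCGAA, of the CHR type found at mitotic genes, stood in 20.7% of the 29, 34.4% of the mitotic and 17.4% of all start regions, and CCAAT in 58.6%, 78.1% and 34.5%. A match is a string of letters, not a site where a factor was seen to bind. The 4 regions below, each 250 bases 5′ to 3′ on the strand of its gene, carry the E2F-type matches in capitals; overlapping matches form a longer run in Mcm5 and Mcm6. They are chr11:98907901-98908150 (plus strand, Cdc6), chr8:75109259-75109508 (plus, Mcm5), chr1:128359706-128359955 (minus, Mcm6) and chr5:138171884-138172133 (minus, Mcm7).
Cdc6: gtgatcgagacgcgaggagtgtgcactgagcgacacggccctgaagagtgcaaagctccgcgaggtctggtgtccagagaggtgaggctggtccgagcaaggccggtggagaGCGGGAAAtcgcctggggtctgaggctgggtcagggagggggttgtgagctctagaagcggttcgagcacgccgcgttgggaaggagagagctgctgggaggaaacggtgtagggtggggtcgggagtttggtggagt
Mcm5: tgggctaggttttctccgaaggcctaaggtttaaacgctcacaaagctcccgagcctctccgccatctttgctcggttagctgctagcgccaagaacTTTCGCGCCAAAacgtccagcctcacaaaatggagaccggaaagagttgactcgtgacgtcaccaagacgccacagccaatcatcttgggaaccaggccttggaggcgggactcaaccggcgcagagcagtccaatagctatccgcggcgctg
Mcm6: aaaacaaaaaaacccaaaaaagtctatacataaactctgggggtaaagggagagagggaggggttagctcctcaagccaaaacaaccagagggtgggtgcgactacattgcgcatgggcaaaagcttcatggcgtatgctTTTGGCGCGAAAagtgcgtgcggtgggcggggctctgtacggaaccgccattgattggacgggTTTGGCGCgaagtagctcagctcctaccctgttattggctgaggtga
Mcm7: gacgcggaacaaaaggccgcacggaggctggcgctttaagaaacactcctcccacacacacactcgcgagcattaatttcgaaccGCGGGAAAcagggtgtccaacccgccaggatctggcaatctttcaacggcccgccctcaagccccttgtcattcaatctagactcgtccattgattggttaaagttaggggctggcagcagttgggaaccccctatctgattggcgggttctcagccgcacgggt
By the gene positions of GENCODE vM21, the RefSeq start used lies 350 bases inside Cdc6 and 539 inside Mcm7, so those 2 windows lie within the annotated genes, and 60 and 41 bases before Mcm5 and Mcm6. Of the 29 genes, 5 had it over 100 bases inside, also E2f1 (466), Dut (325) and Pcna (134), so a missing word there is not read. Among several RefSeq starts, the one nearest the annotated gene start was taken for the 34 genes and the first listed for the comparison sets. Counted back from the RefSeq start, the first base of the match, GCGGGAAA (the opposite strand of TTTCCCGC), lies at -138 in Cdc6 and -165 in Mcm7. Mcm5 has matches from -153 and -149, and Mcm6 from -110, -106 and -47. Cdc6 and Mcm7 thus carry the same 8 letters, in both inside the annotated gene. Their folds in mesenchymal progenitor-like cells were 0.722 and 3.29, and a link between a word and a fold was not tested.

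The partners that activate the helicase had folds as high as the MCM genes. Cdc45 went from 0.654 to 10.2 CPM in mesenchymal progenitor-like cells, a fold of 15.6 (8.59 to 31.5), and from 1.66 to 19.4 CPM in myogenic-like cells, a fold of 11.6 (4.86 to 36.5). In monocyte/macrophage-like cells it had the highest fold of all 34 genes, 4.71 (1.27 to 39.4), but on 2 sham UMIs, and as a mean of per-cell levels it was lower in tenotomy, at 0.526. Gins2, of the GINS ring that joins the helicase, was 13.5-fold (9.56 to 19.6) higher in mesenchymal progenitor-like and 6.37-fold (4.26 to 9.74) higher in blood endothelial-like cells, and Gins1 had the lowest fold of the 3 in each, 3.45 (2.27 to 5.44) and 2.54 (1.53 to 4.26). Polymerase alpha and primase differed less. Pola1, the catalytic subunit, was at 12.6 and 13.3 CPM in mesenchymal progenitor-like cells, a fold of 1.06 (0.892 to 1.25), while Prim1, which makes the RNA primer, was at 4.64 and 12.0 CPM, a fold of 2.58 (2.02 to 3.34). In myogenic-like cells their folds were 2.58 (1.83 to 3.75) and 7.25 (4.15 to 13.8).

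Within the clamp group Pclaf and Pcna lay far apart. Pclaf, whose product binds PCNA at the fork, had 15 UMIs in sham and 2993 in tenotomy in mesenchymal progenitor-like cells, or 0.892 and 96.1 CPM, a fold of 108 (65.3 to 193). It was 49.2-fold (30.2 to 86.2) higher in myogenic-like cells, at 5.32 and 262 CPM, 24.5-fold (16.3 to 38.4) in blood endothelial-like cells, at 1.98 and 48.5 CPM, and 3.26-fold (2.38 to 4.58) in monocyte/macrophage-like cells, at 15.1 and 49.1 CPM. Pericyte or smooth muscle-like cells had 0 sham and 46 tenotomy UMIs of Pclaf. Pcna itself, the clamp, lay closer to its sham level than Pclaf, though none of the following intervals reached 1. It was at 101 and 94.1 CPM in mesenchymal progenitor-like cells (0.929, 0.875 to 0.987), 322 and 271 in blood endothelial-like cells (0.841, 0.794 to 0.891), 226 and 178 in monocyte/macrophage-like cells (0.788, 0.724 to 0.859) and 118 and 177 in myogenic-like cells (1.505, 1.34 to 1.70). Pcna and Tyms have pseudogene copies in the gene name table (Pcna-ps1, Pcna-ps2, Tyms-ps). No source used here says how the authors counted reads that match both, so their levels carry that uncertainty. The clamp loader genes Rfc2 to Rfc5 had folds of 2.91 to 4.97 in mesenchymal progenitor-like, 4.72 to 12.4 in myogenic-like, 1.21 to 2.70 in blood endothelial-like and 0.870 to 2.31 in monocyte/macrophage-like cells, each time highest for Rfc5. Rpa2, of the single-strand binding complex, was at 14.6 and 18.7 CPM in mesenchymal progenitor-like cells, a fold of 1.28 (1.10 to 1.496). On the lagging strand, the flap nuclease Fen1 and the ligase Lig1 were 4.59-fold (3.26 to 6.63) and 4.87-fold (4.01 to 5.97) higher in mesenchymal progenitor-like cells, and 14.1-fold (5.93 to 44.1) and 6.60-fold (4.66 to 9.64) in myogenic-like cells.

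All 5 nucleotide supply genes were at least 2-fold higher in mesenchymal progenitor-like and myogenic-like cells. Tk1, the thymidine kinase of S phase, had 3 sham and 1168 tenotomy UMIs in mesenchymal progenitor-like cells, or 0.178 and 37.5 CPM, a ratio of 210 (71.8 to 1022). In blood endothelial-like cells it was at 0.396 and 17.5 CPM, a fold of 44.1 (18.3 to 139), the highest of the 34 there. Rrm2, the S phase subunit of ribonucleotide reductase, was 15.2-fold (11.2 to 21.3) higher in mesenchymal progenitor-like cells, at 2.44 and 37.1 CPM, against 3.15-fold (2.81 to 3.53) for its partner subunit Rrm1, at 21.0 and 66.2 CPM. The same pair was 25.2-fold and 9.66-fold higher in myogenic-like, 3.43-fold and 1.75-fold in blood endothelial-like, and 3.49-fold and 2.43-fold in monocyte/macrophage-like cells, so that Rrm2 had the higher fold in all 4. Tyms, thymidylate synthase, was at 14.2 and 79.7 CPM in blood endothelial-like cells, a fold of 5.62 (4.72 to 6.70), and at 11.3 and 12.6 CPM in monocyte/macrophage-like cells. Dut, which clears dUTP, was at 32.3 and 121 CPM in mesenchymal progenitor-like cells, a fold of 3.75 (3.43 to 4.12).

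Of the chromatin genes, Uhrf1 and Dnmt1 copy DNA methylation, Chaf1b loads histones and Slbp binds histone mRNA. Uhrf1 was 34.1-fold (15.6 to 93.5) higher in myogenic-like cells, at 1.996 and 68.2 CPM, and 10.6-fold (7.36 to 15.9) in mesenchymal progenitor-like cells. Chaf1b was 15.1-fold (8.55 to 29.6) higher in mesenchymal progenitor-like cells, at 0.713 and 10.8 CPM, and Dnmt1 2.57-fold (2.22 to 2.99), at 13.1 and 33.8 CPM. Slbp was close to its sham level in each class: 74.5 and 59.7 CPM in mesenchymal progenitor-like (0.802, 0.746 to 0.862), 91.5 and 94.3 in myogenic-like (1.03, 0.894 to 1.19), 119 and 114 in blood endothelial-like (0.956, 0.872 to 1.05) and 109 and 81.5 in monocyte/macrophage-like cells (0.746, 0.660 to 0.845). Pericyte or smooth muscle-like cells had 9 genes measured, of which 5 (Mcm7, Pclaf, Lig1, Tyms and Dut) were at least 2-fold higher and none lower, where 6.13% and 10.6% of all genes were so. Their Tyms was at 12.8 and 66.4 CPM, a fold of 5.21 (2.48 to 11.9). Myofibre-like cells had no member with 25 UMIs, and of all their measured genes 28.2% were higher and 12.9% lower by that fold.

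Pcna and Slbp carried much of the summed level of these 4 classes in sham. Together they made 45.3% (44.1 to 46.5) of the summed UMIs in sham mesenchymal progenitor-like cells, 47.8% in myogenic-like, 56.5% in blood endothelial-like and 49.7% in monocyte/macrophage-like cells. In tenotomy these shares were 14.5%, 11.9%, 32.9% and 32.2%. Without Pcna, Dut, Slbp, Rpa2 and Dnmt1, which left 29 genes, the summed folds were 4.83, 9.32, 2.47 and 1.65 in the same 4 classes. No threshold chose the 5 genes left out. Over all cells Pcna, Slbp and Rpa2 had folds of 0.832, 0.858 and 0.973, and Dut and Dnmt1 of 2.68 and 2.14. Leaving out genes of low fold raises a summed fold by construction, so the rise is not read as a result. The share of cells with S phase transcripts, counted as at least 2 UMIs over the genes with each cell thinned to 2000 UMIs, is therefore given for all 34 genes and for these 29. Neutrophil-like cells, a type that does not divide once mature, are given as the background; the source of their UMIs was not tested. Of the tenotomy library 17 of 155 neutrophil-like cells passed with all genes, 10.97% (6.52 to 16.98), and 8 with 29 genes, 5.16% (2.25 to 9.92). Thinning left out 337 of 492 of them, and their median was 1464.5 UMIs before it. In sham 6 of 41 such cells passed with all genes, 14.6% (5.57 to 29.2).

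With all 34 genes, 18.9% (17.1 to 20.7) of sham and 32.3% (30.2 to 34.6) of tenotomy mesenchymal progenitor-like cells passed, of 1924 and 1778 cells, and 72.3% and 82.4% without thinning. With 29 genes these were 4.05% (3.22 to 5.03) and 20.1% (18.2 to 22.0). Myogenic-like cells had 19.9% (16.2 to 23.9) of 443 and 54.4% (49.3 to 59.5) of 384 cells, or 65.5% and 86.6% without thinning, and 4.74% (2.96 to 7.16) and 46.6% (41.5 to 51.7) with 29 genes. The sham shares with 29 genes lie within the interval of the neutrophil-like cells of the other library, as do those of tenocyte-like cells, 6.14% in sham and 3.60% in tenotomy, and are not read as above that background. Blood endothelial-like cells had 45.3% (43.4 to 47.2) of 2755 and 47.5% (44.5 to 50.5) of 1104 cells, with all genes, or 67.6% and 64.4% without thinning, and 10.1% (8.99 to 11.3) and 19.0% (16.7 to 21.5) with 29. Monocyte/macrophage-like cells turned direction between the lists: 37.01% (31.6 to 42.7) of 308 and 29.5% (28.2 to 30.9) of 4270 cells with all genes, or 77.1% and 70.9% without thinning, and 9.42% (6.40 to 13.2) and 14.0% (12.9 to 15.03) with 29. Their sham share with 29 genes also lies within the neutrophil-like interval (2.25 to 9.92), and the interval of the sham blood endothelial-like share overlaps it. Neither is read as above that background. With all genes, the sham shares of mesenchymal progenitor-like and myogenic-like cells lie within the sham neutrophil-like interval (5.57 to 29.2). For single genes, Pcna was seen in 45.1% of thinned sham and 39.6% of thinned tenotomy blood endothelial-like cells, and Pclaf in 0.145% and 3.26%.

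**Figure D2:**
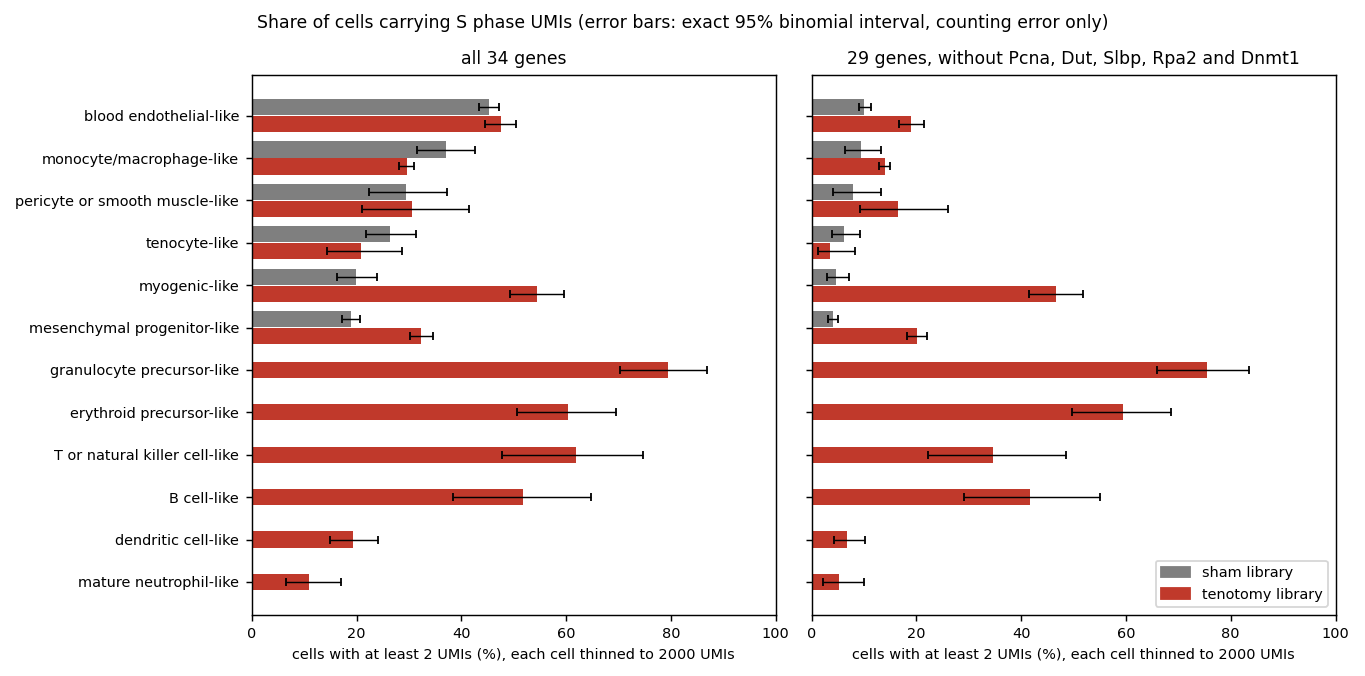
Share of cells (%) with at least 2 UMIs over all 34 genes (left) and over 29 genes (right), each cell thinned to 2000 UMIs, in the sham (grey) and tenotomy (red) library, with exact 95% binomial intervals; the 6 lower classes had a bar in tenotomy only. Blood endothelial-like cells have bars of 45.3% and 47.5% on the left and 10.1% and 19.0% on the right, and neutrophil-like cells 10.97% and 5.16%.

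The order of the classes in S phase signal was compared with that in 37 mitotic genes, over classes of at least 50 cells. In sham, blood endothelial-like cells led in S phase signal with 781 CPM but were the third in mitotic signal with 66.9 CPM, and monocyte/macrophage-like cells led in mitotic signal with 233 CPM. Tenocyte-like cells were the fourth in S phase signal, at 468 CPM, and last of 8 in mitotic signal, at 24.6 CPM. This order depends on the genes summed. With the 29 genes monocyte/macrophage-like cells led the sham classes in S phase signal too, at 294 CPM. Blood endothelial-like cells then had 270 CPM, and tenocyte-like cells took rank 6 at 173 CPM. Over these 8 classes Spearman's rho between both orders was 0.476, and over 13 classes in tenotomy 0.934, as descriptions of points that share a library and free RNA. The ratio of S phase to mitotic UMIs in sham lay between 2.91 (2.65 to 3.19) in monocyte/macrophage-like and 19.1 (15.4 to 23.9) in tenocyte-like cells.

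The marker gate found 117 erythroid precursor-like cells in tenotomy and none in sham, while classes from clusters held 123 and 22. In tenotomy those of the gate were highest in both signals, with 4396 CPM of S phase and 11048 CPM of mitotic genes, a ratio of 0.398 (0.382 to 0.415). Granulocyte precursor-like cells (102 cells) followed with 3697 and 3673 CPM, then myogenic-like cells with 2289 and 3228 CPM, a ratio of 0.709 (0.695 to 0.724), and B cell-like cells with 1897 and 3244 CPM. Blood endothelial-like cells were the fifth in S phase signal and the eighth in mitotic signal, with a ratio of 2.24 (2.15 to 2.34) from 1168 and 521 CPM. A lower S phase level, 1063 CPM, in mesenchymal progenitor-like cells went with 1257 CPM of mitotic genes, for which the ratio was 0.845 (0.833 to 0.858). With the 29 genes the order of these classes in S phase signal turned. Mesenchymal progenitor-like cells then had 735 CPM and blood endothelial-like cells 668 CPM. Dendritic cell-like, tenocyte-like and myofibre-like cells, at 548, 484 and 273 CPM, stood below the neutrophil-like cells at 554 CPM. Of the 34 genes, 19 had their highest tenotomy level in erythroid precursor-like, 12 in granulocyte precursor-like, 2 (Rfc3 and Uhrf1) in B cell-like and 1 (Chaf1b) in pericyte or smooth muscle-like cells. That Chaf1b level, 19.93 CPM, rests on 9 UMIs and is beside 19.89 CPM in erythroid precursor-like cells, so their order is not read. Rrm2 stood at 473 CPM in erythroid precursor-like, 216 in granulocyte precursor-like, 168 in myogenic-like and 37.1 in mesenchymal progenitor-like cells. Pclaf was highest in granulocyte precursor-like cells, at 474 CPM, then in myogenic-like cells at 262 and in B cell-like cells at 249, and lowest in tenocyte-like cells at 4.24.

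**Figure D3:**
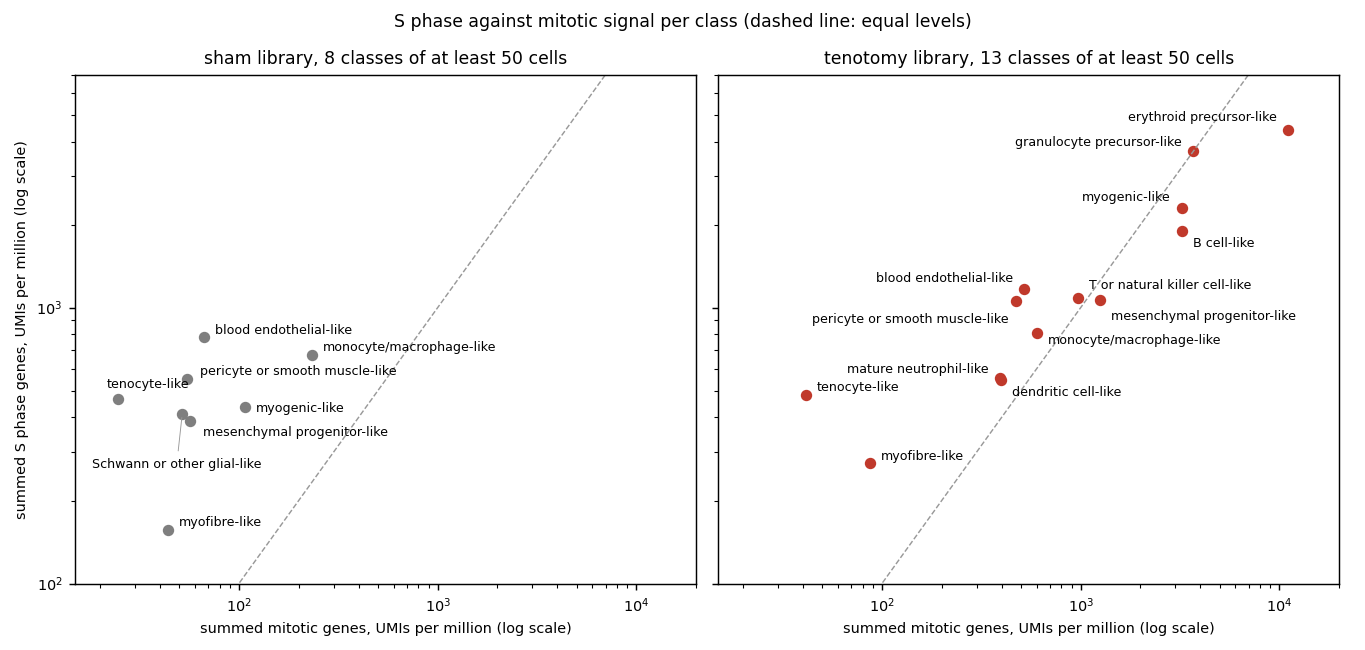
Summed level of the 34 S phase genes against that of 37 mitotic genes (CPM, both axes log scale), 1 point per class, in the sham (left) and tenotomy (right) library; the dashed line marks equal levels. All 8 sham classes lie above the line, with ratios of 2.91 to 19.1, while the erythroid precursor-like, B cell-like, myogenic-like and mesenchymal progenitor-like cells of tenotomy lie below it.

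The mitotic genes themselves showed larger folds than the S phase genes in each of these classes: 29.9 (26.8 to 33.5) for their sum in myogenic-like, 22.1 (20.7 to 23.6) in mesenchymal progenitor-like, 7.79 (7.22 to 8.41) in blood endothelial-like and 2.59 (2.39 to 2.81) in monocyte/macrophage-like cells. Of the tenotomy mesenchymal progenitor-like cells thinned to 2000 UMIs, 292 had at least 2 UMIs of S phase genes only, 283 of both lists and 144 of mitotic genes only, so that 66.3% (61.6 to 70.8) of the mitotic-positive cells also carried S phase UMIs. In myogenic-like cells these were 65, 144 and 14 cells, or 91.1% (85.6 to 95.1). Blood endothelial-like cells had 467, 57 and 8 cells, and 10.9% (8.34 to 13.9) of those with S phase UMIs carried mitotic ones, against 68.9% (62.1 to 75.1) in myogenic-like cells. These calls use all 34 genes, and Pcna and Slbp made 32.9% of the S phase UMIs of tenotomy blood endothelial-like cells. With the 29 genes, 10.1% of sham and 19.0% of tenotomy blood endothelial-like cells had S phase UMIs. The split by mitotic UMIs was not made with the 29 genes, so cells with S phase UMIs only are not read as cells in S phase. Monocyte/macrophage-like cells had 1012, 249 and 237 cells, and erythroid precursor-like cells 1, 66 and 32.

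**Figure D4:**
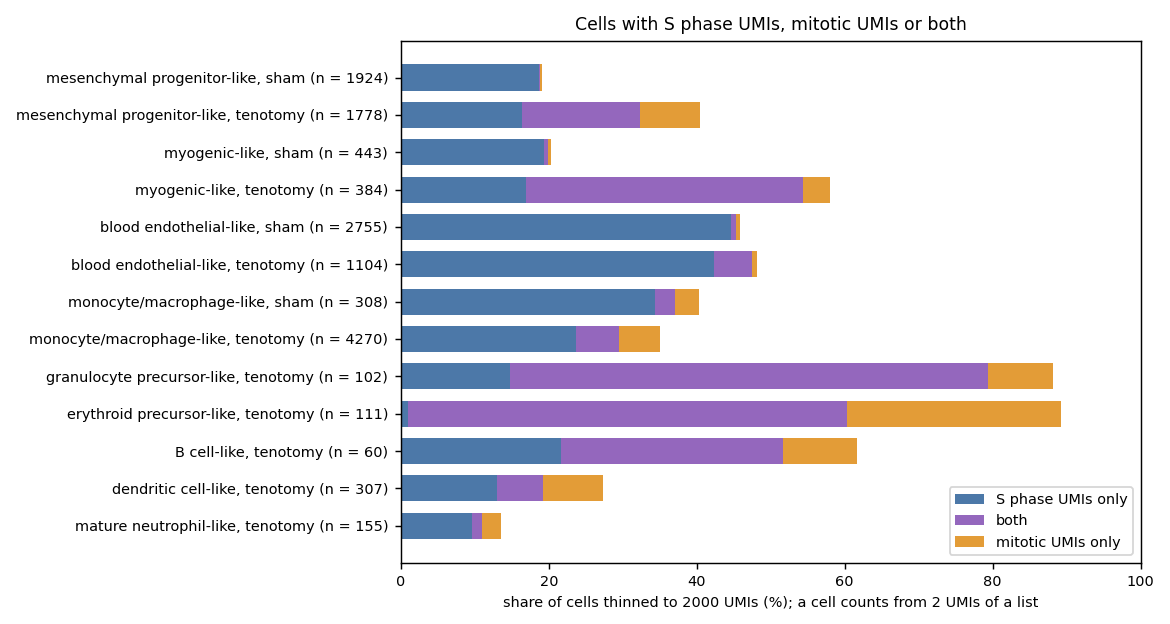
Share of cells (%), each thinned to 2000 UMIs, with at least 2 UMIs of S phase genes only (blue), of S phase and mitotic genes (purple) or of mitotic genes only (orange), by class and library, with the number of cells. Blood endothelial-like bars are mostly blue in both libraries (467 cells with S phase UMIs only and 57 with both in tenotomy), while purple is the widest part in myogenic-like tenotomy cells (144 of 384).

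Cells of the tenotomy library with at least 2 mitotic UMIs, which come from genes outside the S phase list, were then set against cells of the same class with 0. The summed S phase level was 6.44-fold (5.80 to 7.17) higher in the mitotic-positive myogenic-like cells (235 and 110 cells), 3.92-fold (3.76 to 4.09) in mesenchymal progenitor-like cells (819 and 719), 3.40-fold (3.23 to 3.58) in blood endothelial-like cells (130 and 1089), 2.30-fold (2.23 to 2.38) in monocyte/macrophage-like cells (1574 and 1829) and 2.28-fold (1.95 to 2.67) in dendritic cell-like cells (164 and 82). Of the 34 genes, 33, 32, 30, 28 and, in the last class with 30 measured, 20 were at least 2-fold higher, against 17.2%, 7.37%, 7.28%, 4.95% and 3.43% of all genes measured in these classes. Mitotic-positive cells were deeper, with a median of 23744 against 7172 UMIs in mesenchymal progenitor-like cells. Its part in the ratios was not tested beyond the split of thinned cells, where the sum was 4.92-fold higher in blood endothelial-like and 3.31-fold in monocyte/macrophage-like cells. Pclaf had the highest median ratio over the 5 classes, 66.5, from 46.4 in monocyte/macrophage-like to 275 in myogenic-like cells, followed by Tk1 with 31.4 and Rrm2 with 13.0. Slbp had the lowest, 1.17, then Pcna with 1.40, Rfc3 with 1.90 and Cdt1 with 2.47. Cdt1 was at 5.85 in myogenic-like but 0.874 in monocyte/macrophage-like cells, and E2f1 at 18.2 in blood endothelial-like but 1.97 in monocyte/macrophage-like cells.

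**Figure D5:**
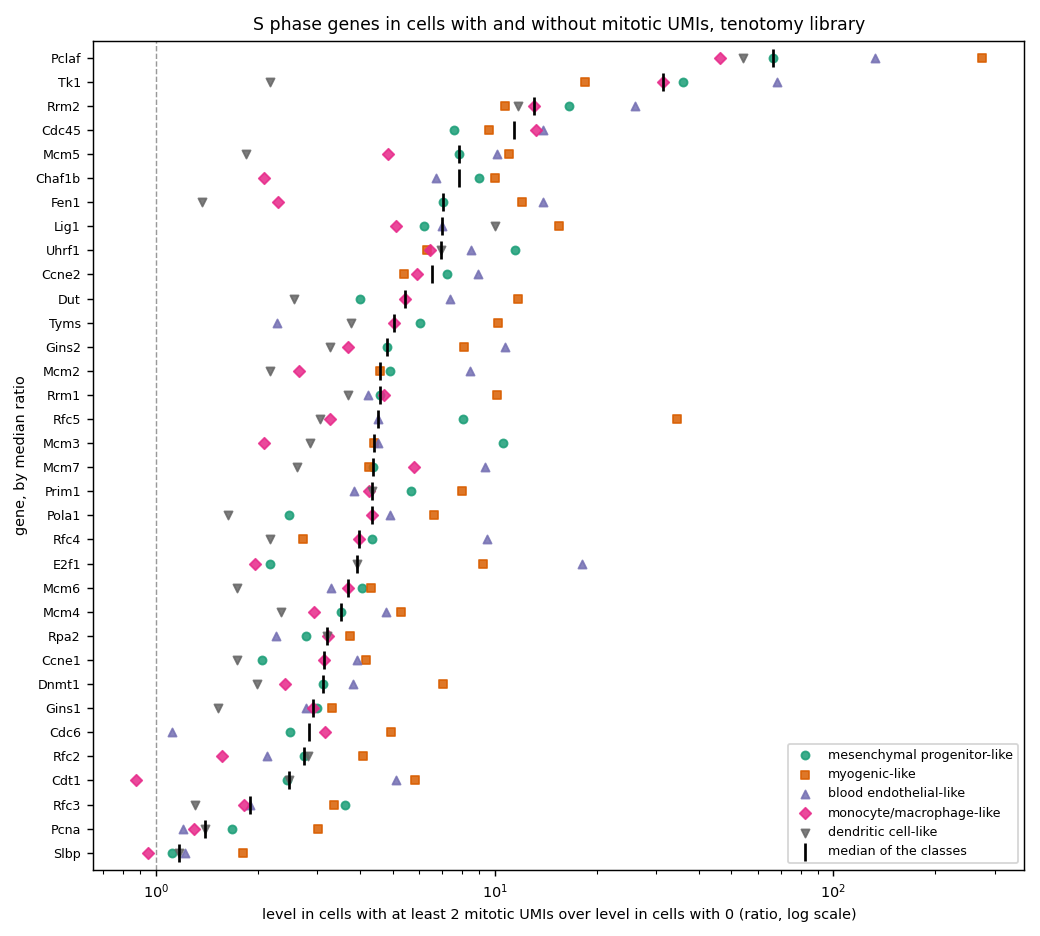
Ratio of each gene's level in cells with at least 2 mitotic UMIs to that in cells with 0 (log scale), in 5 classes of the tenotomy library, genes ordered by the median (black bar); the dashed line marks a ratio of 1 and points with too few UMIs are left out. Pclaf lies at the top with ratios of 46.4 to 275, and Slbp and Pcna at the bottom with medians of 1.17 and 1.40.

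Among cells with 0 mitotic UMIs the summed fold was 0.942 (0.897 to 0.990) in mesenchymal progenitor-like, 1.10 (0.975 to 1.25) in myogenic-like, 1.02 (0.976 to 1.07) in blood endothelial-like and 0.843 (0.777 to 0.915) in monocyte/macrophage-like cells. With the 29 genes it was 1.18 (1.10 to 1.27), 1.77 (1.49 to 2.11), 1.27 (1.18 to 1.36) and 1.002 (0.881 to 1.14). These intervals lay above 1 in all but the monocyte/macrophage-like cells, for a set that leaves out Pcna and Slbp, genes of low fold. Of the measured genes, 6 of 29, 3 of 13, 3 of 31 and 1 of 27 were at least 2-fold higher there, against 7.19%, 19.3%, 5.62% and 8.8% of all genes. Outside mesenchymal progenitor-like cells these counts are near the background. In the same order 1, 1, 0 and 2 genes were at least 2-fold lower, for which no share of all genes was taken. The higher genes in mesenchymal progenitor-like cells were Cdt1 (5.11-fold, 3.1 to 8.70), Gins2 (3.97), Mcm2 (3.16), Mcm5 (3.1), E2f1 (2.09) and Tyms (2.04), and in blood endothelial-like cells Tyms (4.58-fold, 3.70 to 5.70), Uhrf1 and Cdt1. Cdc6 was at 7.38 CPM in sham and 2.64 in tenotomy in these mesenchymal progenitor-like cells, a fold of 0.358 (0.200 to 0.603). These genes were chosen after their values were seen.

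The classes also held different clusters on each side. Of the tenotomy mesenchymal progenitor-like cells 58.2% lay in a cluster with no sham cell of the class, at 1180 CPM, and 59.7% of the sham cells in one that held 3.03% of the tenotomy cells, at 381 CPM in sham. In the cluster best shared by both, with 306 and 553 cells, the fold was 1.55 (1.45 to 1.66). It was 0.815 (0.647 to 1.01) in the mainly sham cluster, with 310.4 CPM in tenotomy, and 1.13 (0.996 to 1.28) in a cluster of 375 and 137 cells. Of the tenotomy myogenic-like cells 79.2% lay in a cluster with 3 sham cells, at 2407 CPM, and in the other the fold was 1.17 (0.993 to 1.37). Blood endothelial-like cells had 75.9% of tenotomy and 3.07% of sham cells in 1 cluster, with a fold of 2.03 (1.81 to 2.28) inside it, and a monocyte/macrophage-like cluster of 216 sham and 1003 tenotomy cells had a fold of 1.92 (1.80 to 2.04), from 727 to 1395 CPM.

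Other genes of the pathway were taken from fixed lists. Of 57 further replication genes, 48 of 56 measured were at least 2-fold higher and none lower in myogenic-like cells, 32 of 57 and none in mesenchymal progenitor-like, 18 of 52 and 1 in blood endothelial-like, and 11 of 56 and 4 in monocyte/macrophage-like cells. All genes were at least 2-fold higher in 34.8%, 14.9%, 8.92% and 7.84% of cases in these classes and lower in 11.6%, 19.5%, 8.23% and 13.7%. In mesenchymal progenitor-like cells Gmnn, the inhibitor of Cdt1, was at 0.654 and 18.15 CPM, 27.8-fold (15.4 to 55.9) higher, and Asf1b, a histone chaperone, at 0.594 and 14.3 CPM, 24.1-fold (13.0 to 50.6) higher. Pola2, a subunit of polymerase alpha, was 2.37-fold (2.05 to 2.76) lower in blood endothelial-like cells, at 84.8 and 35.8 CPM, and Timeless, of the fork protection complex, 2.87-fold (1.69 to 4.68) lower in monocyte/macrophage-like cells. Of 13 G1 regulators, 4 were at least 2-fold higher and 5 lower in mesenchymal progenitor-like, 7 and 1 in myogenic-like, 2 and 2 in blood endothelial-like, and none and 2 in monocyte/macrophage-like cells. Read against the same shares of all genes, the 1 lower in myogenic-like cells and the 2 lower in monocyte/macrophage-like cells are near the background. So are the 2 higher and 2 lower in blood endothelial-like cells. With 13 genes, no count was tested against that background. The CDK inhibitor gene Cdkn1c was 7.90-fold (7.42 to 8.42) lower in mesenchymal progenitor-like cells, at 304 and 38.4 CPM, but 23.5-fold (20.4 to 27.3) higher in myogenic-like cells, at 63.55 and 1495 CPM. Cdk6, a G1 kinase, was 29.6-fold (16.4 to 59.6) and 9.59-fold (7.14 to 13.2) higher in these classes.

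Over 21 pairs of class and library, the genes outside the list whose level went most with the summed S phase level were, among 7833 genes with at least 50 CPM in 1 pair, Smc2 (Pearson r of log2 levels 0.958), Topbp1 (0.943), Ssrp1 (0.942), Atad2 (0.942), Smc4 (0.936), Tpx2 (0.932), Clspn (0.931), Cdca8 (0.925), Plk4 (0.921) and Incenp (0.920). Smc2 and Smc4 are condensin subunits, and Topbp1 and Clspn act in the replication checkpoint. Of the list itself, Lig1 had the highest r, 0.963, and Cdc6 the lowest of those measured, 0.657, each as part of the sum it was compared with.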

How the data were processed

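Raw counts of UMIs per gene and cell barcode were deposited by the authors, 1 table per library and with no normalization; Cell Ranger 4.0.0 and mm10 are named per the submitters' processing notes, with the annotation not given in the sources used here. Filters on cells were a minimum of 300 genes, a minimum of 500 UMIs and a mitochondrial share of up to 10%, and the scrublet method in scanpy 1.11.5, at its automatic threshold for each library, removed 205 sham and 309 tenotomy cells as doublets (2.65% and 2.75%). A cell joined the best of 16 marker classes if it had at least 3 of its markers and 1.5 times the score of any other; 7.04% of sham and 8.61% of tenotomy cells joined none. This gate, which uses no replication gene, was set after class sizes had been seen; a first form, on the fraction of markers detected, kept fewer myogenic-like cells and was dropped.

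UMIs were summed per class and library. A gene was measured with at least 25 UMIs over both libraries, a fold is the tenotomy level divided by the sham level (95% limits from an exact conditional binomial test of the UMIs), and a count of 0 was taken at a floor of 3 UMIs. Shares have exact Clopper-Pearson intervals. UMIs of a cell are not independent of each other, so intervals cover counting error only. The method was tested on simulated data. The members were given as a list and other genes were named by a rule of size (the interval bound nearest to 1); members and lists were chosen with earlier results of these data known. Alternatives were a stricter gate, clusters (30, made without replication and mitotic genes), doublets kept, a 5% mitochondrial limit, other depths, thresholds, weights and gene sets. The coordinates of start regions are RefSeq's on GRCm38.p6; python 3.11.15, numpy 2.4.6 and scipy 1.17.1 were used.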

Additional observations from a re-analysis of the deposited data

Results flagged for a closer look

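Cdc6 was higher in tenotomy in myogenic-like cells, 14.1-fold, and lower in mesenchymal progenitor-like (0.722), blood endothelial-like (0.559) and monocyte/macrophage-like cells (0.400), with no interval that reached 1. Pcna was 1.505-fold higher in myogenic-like cells and lower in mesenchymal progenitor-like (0.929), blood endothelial-like (0.841) and monocyte/macrophage-like cells (0.788). Both were singled out because their folds lie on opposite sides of 1 in different classes. With 1 library on each side the difference between classes was not tested. The myogenic-like value of Cdc6 rests on 3 sham UMIs, and thinning turned its monocyte/macrophage-like value to 1.08.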

How the results depend on the processing

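No paired analysis was possible because each group is 1 pooled library. Of the alternative values of the main results 81 stayed close, 72 moved and 6 changed direction, and of those of single genes 897 stayed close, 51 moved and 3 changed direction; no cause was tested. The classes are mesenchymal progenitor-like (MP), myogenic-like (MY), blood endothelial-like (BE), monocyte/macrophage-like (MM), tenocyte-like (TE) and pericyte or smooth muscle-like (PE). The count of genes at least 2-fold higher was 19 (MY) and 14 (BE) in thinned cells, 13 (BE) and 6 (MM) as means per cell, 12 (BE) and 4 (MM) at 3-fold, 2 (MM) where the interval had to lie above 2, and 6, 3, 3 and 1 (MP, MY, BE, MM) in cells with 0 mitotic UMIs. Except in cells with 0 mitotic UMIs, no share of all genes was taken under these settings. In MM, Cdc45 (0.526) and Gins1 (0.735) changed direction as means per cell, and Cdc6 (1.08) after thinning. The summed fold as a mean per cell was 1.98 (MP), 4.24 (MY), 1.24 (BE), 1.003 (MM) and 1.56 (PE), and in thinned cells 1.99, 4.38, 1.26, 1.10 and 1.40, with 0.936 in TE. Without Pcna, Dut, Slbp, Rpa2 and Dnmt1 it was 4.83 (MP), 9.32 (MY), 2.47 (BE), 1.65 (MM), 1.28 (TE) and 2.67 (PE). In cells with 0 mitotic UMIs it was 0.942, 1.10, 1.02, 0.843, 0.920 and 1.03 in that order, and after thinning 1.14, 1.35, 1.004, 0.904, 0.881 and 0.872. A 5% mitochondrial limit gave 6.17 (MY), 1.14 (MM) and 2.49 (PE), and classes from clusters 1.19 (TE) and 1.57 (PE). The ratio of the tenotomy to the sham share of cells was 2.61 (MP), 4.69 (MY), 1.22 (BE) and 0.975 (MM) at 1000 UMIs, 1.27 (MP) and 1.60 (MY) at 4000 UMIs, and 1.14 (MP), 1.32 (MY) and 0.954 (BE) without thinning. It was 1.15 (MP), 1.29 (MY) and 0.988 (MM) from 1 UMI, 3.998 (MP), 6.80 (MY), 1.16 (BE) and 1.03 (MM) from 3 UMIs, and 4.95, 9.83, 1.89 and 1.48 in the 29 genes. Spearman's rho between the orders was 0.714 in sham and 0.802 in tenotomy by share of cells, and 0.619 in sham with the 29 genes. The ratio between cells with and without mitotic UMIs was 3.44 (MP), 2.12 (BE) and 1.82 (MM) from 1 mitotic UMI, 4.18, 4.20, 2.995 and, in dendritic cell-like cells, 2.90 from 3, and 4.92 (BE), 3.31 (MM) and 3.42 (dendritic cell-like) in thinned cells. The stricter gate and keeping doublets moved no summed value. With 1 library a side, depth limits single genes most in the small classes: in PE 25 of the 34 genes had under 25 UMIs.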
